A study of Mus musculus with 8 samples.

Results

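The stress and companion layer keratins are 6 intermediate filament genes of mouse skin, Krt6a, Krt6b, Krt16, Krt17, Krt75 and Krt79. They were taken as every non-control probe whose RefSeq accession in the scanner tables belongs to 1 of these symbols. This gave 6 of 20284 named genes, carried by 7 of 26762 named probes among 55681 non-control probes. The study hybridised total RNA of whole mouse skin, labelled with Cy3, to 8 single-colour arrays, and its title names overexpression of Musashi1. The groups were 4 arrays labelled DTG skin and 4 arrays labelled Control skin, all given as male. The labels do not spell out DTG, and the promoter that drives the transgene, the strain, the age of the mice and what Control skin carries are not given in the sources used here. They also do not say whether the samples of a group came from separate animals, so the p-values measure only sample-to-sample spread, part of which may be technical. In each group the sex-linked transcripts Xist and Eif2s3y differed widely between arrays, so the samples of a group were not all from 1 animal.

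Keratins form filaments as pairs of a type I and a type II chain. Krt6a, Krt6b, Krt75 and Krt79 encode type II chains, and Krt16 and Krt17 encode type I chains that pair with the Krt6 products. In resting skin the Krt6 genes, Krt16 and Krt17 are made mainly in hair follicles, nail and the skin of the sole, and keratinocytes of the epidermis switch them on after wounding, irritation or in hyperproliferative states, which is why they are called stress keratins. Krt75 marks the companion layer, the single cell layer between the outer and inner root sheaths of the follicle, and Krt79 marks the upper follicle and, in mice, the cells that open the hair canal.

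Of the 6 genes, 2 rose in DTG skin, Krt75 and Krt6a, and no member fell. Krt6b, Krt16, Krt17 and Krt79 did not pass the test, which was a limma fit over all 17737 named genes that passed the filter on dim probes, with a call at a Benjamini-Hochberg adjusted p under 0.05. In the same fit 32.4% of all genes were called, 11.1% higher and 21.3% lower in DTG skin, so that 2 called members of 6 is a share close to that of all genes. The DTG and Control arrays did not overlap for the same 2 members, against 34.5% of all genes. The median log2 fold change (DTG minus Control, as everywhere below) was -0.02 over the 6 members and -0.15 over all genes tested. All 6 members passed the filter, and all 7 probes read well above background on 4 of 4 DTG arrays and 4 of 4 Control arrays, with no outlier-flagged and no saturated spot. In whole skin, a different number of cells of a type and a different amount of RNA per cell cannot be told apart.

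The promoter table held 2 of the 6 members, Krt75 and Krt79, type II genes on chromosome 15. They are shown because the first rose and the second did not pass the test, at chr15:101573905-101574154 for Krt75 and chr15:101940325-101940574 for Krt79, both on the minus strand. Each line gives the 250 bases before the annotated start, read 5′ to 3′ on the gene's strand from RefSeq sequence of GRCm38.p6, with motif matches in capitals.
Krt75: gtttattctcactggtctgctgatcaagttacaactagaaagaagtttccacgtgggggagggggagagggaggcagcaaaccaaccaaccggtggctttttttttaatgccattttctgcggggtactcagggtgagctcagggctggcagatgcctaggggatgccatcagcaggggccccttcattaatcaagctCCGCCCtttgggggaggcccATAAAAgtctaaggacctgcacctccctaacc
Krt79: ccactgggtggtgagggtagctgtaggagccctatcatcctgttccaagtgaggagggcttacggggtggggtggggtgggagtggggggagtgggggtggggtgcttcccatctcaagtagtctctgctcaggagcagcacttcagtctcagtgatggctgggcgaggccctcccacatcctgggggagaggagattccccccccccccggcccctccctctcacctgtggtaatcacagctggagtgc
Motifs were searched on both strands of the same 250 bases: the TATA box TATAAA, its variant ATAAAA, the AP-1 site TGANTCA, the antioxidant response element core TGACNNNGC, the STAT site TTCNNNGAA and the GC box GGGCGG. Krt75 held 1 ATAAAA, which begins 32 bases before the start, and 1 GC box that reads CCGCCC on this strand, 52 bases before the start. Krt79 held none of the 6 letter patterns in this window. Among 32841 promoters of this length, 17% held ATAAAA, 32.7% the GC box, 12.4% TATAAA, 10.2% TGACNNNGC, 7.02% TTCNNNGAA and 6.75% TGANTCA. The ATAAAA variant was added with the Krt75 sequence in view, and a match describes letters, not a bound site.

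Values below are log2 levels, which are log2 of the scanner's processed signal minus the 75th percentile of the same array, so that 0 is the upper quartile of that array. Krt75, the companion layer keratin, had log2 levels of -1.97, -2.59, -2.34 and -2.39 in DTG skin. Its log2 levels in Control skin were -3.24, -3.17, -3.38 and -3.20. All 4 DTG arrays lay above all 4 Control arrays, and DTG 1 stood above the other 3 DTG arrays. On the processed signal scale this was 993, 705, 817 and 718 in DTG skin, against 349, 469, 333 and 412 in Control skin. The mean log2 level was -2.32 ± 0.26 in DTG skin and -3.25 ± 0.09 in Control skin (SD, n = 4 each). The log2 fold change was 0.92 (SE 0.13, 95% confidence interval 0.62 to 1.23, limma adjusted p = 0.0019), or 1.90-fold. The exact two-sided permutation test gave p = 0.0286, the smallest that the 70 orderings of 4 against 4 arrays allow.

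Krt6a, a type II stress keratin of the companion layer and of wounded epidermis, had log2 levels of 4.09, 4.04, 3.86 and 4.05 in DTG skin. Its log2 levels in Control skin were 3.62, 3.25, 3.74 and 3.31. The lowest DTG array, DTG 3, was above the highest Control array, Control 3, and the groups did not overlap. The processed signals were 66342, 69990, 60194 and 62223 in DTG skin and 40510, 40325, 46409 and 37532 in Control skin. The mean log2 level was 4.01 ± 0.10 in DTG skin and 3.48 ± 0.24 in Control skin (SD, n = 4 each). The log2 fold change was 0.53 (SE 0.13, interval 0.23 to 0.83, limma adjusted p = 0.016), or 1.44-fold, with an exact permutation p of 0.0286. With the slide column as a block the size was the same and the limma adjusted p was 0.0501, so this call ends there, while that of Krt75 stayed at an adjusted p of 0.0137.

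Krt6b, the neighbouring near-copy of Krt6a, was read by 2 probes. The brighter one, A_66_P101935, which stands for the gene, had log2 levels of 4.35, 4.38, 4.28 and 4.31 in DTG skin and 4.64, 4.07, 4.59 and 4.02 in Control skin. The 4 DTG arrays lay close together and inside the range of the Control arrays, of which 2 were above and 2 below every DTG array. Its means were 4.33 ± 0.05 in DTG skin and 4.33 ± 0.33 in Control skin (SD, n = 4 each), with a log2 fold change of -0.0016 (SE 0.16, interval -0.36 to 0.36, limma adjusted p = 0.995).
The other probe, A_51_P126275, had log2 levels of 4.32, 4.33, 3.81 and 4.05 in DTG skin and 4.29, 3.16, 4.03 and 3.54 in Control skin. The groups overlapped, and Control 2 was the lowest array. Its means were 4.13 ± 0.25 in DTG skin and 3.76 ± 0.51 in Control skin (SD, n = 4 each). The log2 fold change was 0.37 (SE 0.25, interval -0.19 to 0.93, adjusted p = 0.278 in the limma fit over all named probes, where 31.3% of probes were called). The within-array difference between the probes changed by -0.37 between DTG and Control skin, with an exact permutation p of 0.0571. Krt6a and Krt6b transcripts are near-identical in sequence and the probe sequences were not used here, so how far each probe reads the other gene was not tested and the split between these genes is uncertain.

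Krt16, the type I partner of the Krt6 products, had log2 levels of 4.69, 4.59, 4.50 and 4.66 in DTG skin and 4.94, 4.40, 4.81 and 4.41 in Control skin. The DTG arrays again lay inside the Control range. The means were 4.61 ± 0.08 in DTG skin and 4.64 ± 0.27 in Control skin (SD, n = 4 each), with a log2 fold change of -0.03 (SE 0.14, interval -0.35 to 0.29, limma adjusted p = 0.879).
Krt17, the other type I stress keratin, also made in the outer root sheath, had log2 levels of 4.16, 3.88, 4.06 and 4.25 in DTG skin and 4.55, 3.94, 4.34 and 4.13 in Control skin. The groups overlapped, with Control 1 the highest array and DTG 2 the lowest. The means were 4.09 ± 0.16 in DTG skin and 4.24 ± 0.26 in Control skin (SD, n = 4 each), with a log2 fold change of -0.15 (SE 0.15, interval -0.49 to 0.18, limma adjusted p = 0.449).

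Krt79, the keratin of the upper follicle, had log2 levels of 4.21, 3.99, 4.05 and 4.24 in DTG skin and 4.42, 4.22, 4.34 and 4.29 in Control skin. The groups overlapped only through DTG 4, which was just above Control 2, and all 4 DTG arrays were below the Control mean. The means were 4.12 ± 0.12 in DTG skin and 4.32 ± 0.08 in Control skin (SD, n = 4 each), with a log2 fold change of -0.19 (SE 0.09, interval -0.41 to 0.02, limma adjusted p = 0.148). The exact permutation p was 0.0571.

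Across the arrays as a whole, Msi1, the gene named in the title, had log2 levels of 3.85 to 4.16 on 3 DTG arrays, its spot on DTG 1 being left out as an outlier, and -5.92 to -1.48 on the Control arrays. Per the file headers all 8 arrays lay on 1 slide, with the DTG arrays in one row and the Control arrays in the other, and an effect of the row and one of the group cannot be told apart. The share of probes well above background was 68.8% to 71.6% on DTG arrays and 79.5% to 85.1% on Control arrays. Spike-in spots read -0.00 to 0.13 against the 75th percentile on DTG arrays and 0.19 to 0.84 on Control arrays in log2 units, and the part of these differences in the values of the keratins was not tested beyond the scalings given below.

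**Figure D1:**
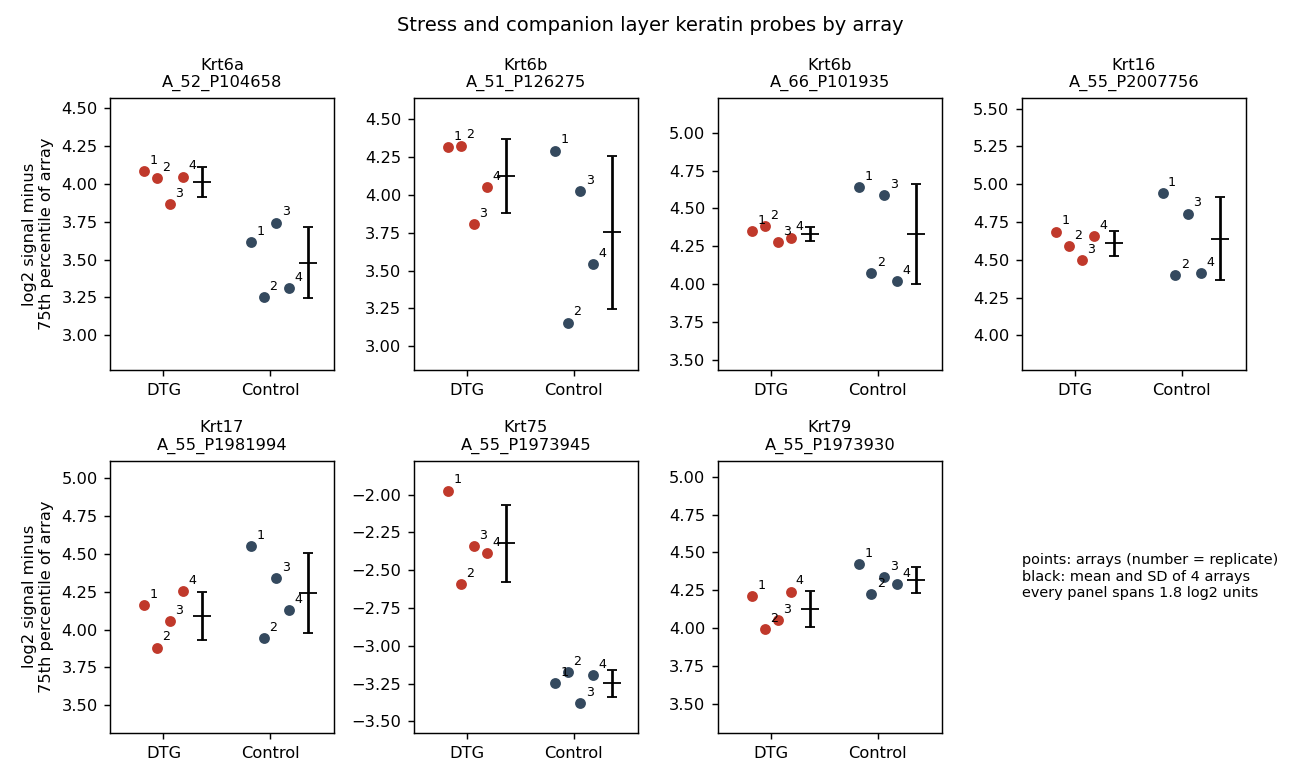
Each panel shows 1 probe, with the log2 level (log2 processed signal minus the array's 75th percentile) on the vertical axis, DTG arrays left and Control arrays right, and the mean and SD of 4 arrays in black. The Krt6a and Krt75 panels separate the groups, while the Krt6b probe A_66_P101935 and the Krt16 probe have DTG arrays inside the Control range.

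The sizes of the changes depended on how the arrays were put on 1 scale. The median log2 fold change of all genes was -0.15 with the 75th percentile, -0.18 with the array median, -0.09 with quantile normalisation, -0.02 with no scaling and 0.28 with the spike-in control spots. Krt75 was higher in DTG skin under all 5 scalings, with log2 fold changes of 0.92, 0.89, 0.89, 1.05 and 1.35 in that order of scalings. Krt6a was higher under all 5 as well, with 0.53, 0.50, 0.72, 0.65 and 0.96, and both passed the limma test under each scaling. The direction of the other members was not settled. Krt6b and Krt16 were below 0 with the 75th percentile and the array median and above 0 with the other 3 scalings, and Krt17 and Krt79 were above 0 with quantile and spike-in scaling and below 0 with the other 3. Krt6b alone among them passed the test once, at 0.42 with spike-in scaling (limma adjusted p = 0.0485).

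**Figure D2:**
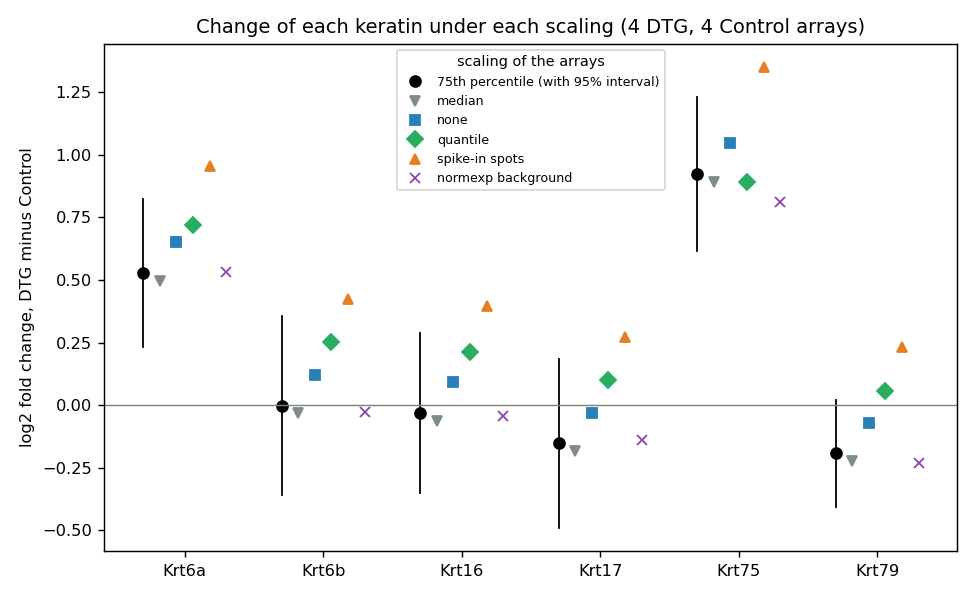
Log2 fold change of each keratin (vertical axis, DTG minus Control, 4 arrays each) under 5 scalings and with normexp background correction, with the 95% interval of the limma fit on the 75th percentile scale. Krt6a and Krt75 lie above 0 under each setting, and the symbols of Krt6b, Krt16, Krt17 and Krt79 fall on both sides of 0.

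Relative to the median of all genes in the same fit, Krt75 was 1.07 higher and Krt6a 0.68 higher on the log2 scale with the 75th percentile, and 0.98 and 0.81 higher with quantile normalisation. Krt6b stood at 0.14, Krt16 at 0.11, Krt17 at -0.01 and Krt79 at -0.05 relative to that median with the 75th percentile. With quantile normalisation those values were 0.34, 0.30, 0.19 and 0.15.

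A difference between 2 keratins on the same array does not depend on a shift of that array, so the 15 pairs of members were compared by it. In 8 pairs the DTG and Control arrays did not overlap, and these were the pairs that set Krt6a or Krt75 against Krt6b, Krt16, Krt17 or Krt79. Krt6a minus Krt16 averaged -0.60 ± 0.03 in DTG skin and -1.16 ± 0.12 in Control skin (SD, n = 4 each), a change of 0.56 (SE 0.06). Krt6a changed more than Krt6b by 0.53 (SE 0.08), than Krt17 by 0.68 (SE 0.11) and than Krt79 by 0.72 (SE 0.11). Krt75 minus Krt79 averaged -6.45 ± 0.20 in DTG skin and -7.57 ± 0.15 in Control skin (SD, n = 4 each), a change of 1.12 (SE 0.13). The changes of Krt6b, Krt16 and Krt17 minus that of Krt75 were -0.93, -0.96 and -1.08. Quantile normalisation does more than shift an array, and the pairs do depend on it. With it the changes of Krt6b, Krt16 and Krt17 minus that of Krt75 were -0.64, -0.68 and -0.79, and Krt75 minus Krt79 changed by 0.83. Krt6a minus Krt6b, Krt16, Krt17 and Krt79 then changed by 0.47, 0.51, 0.62 and 0.66.
The value of Krt6a against Krt6b rests on the Krt6b probe used. With A_51_P126275, Krt6a minus Krt6b averaged -0.12 ± 0.17 in DTG skin and -0.27 ± 0.32 in Control skin (SD, n = 4 each), a change of 0.16 (SE 0.18, exact permutation p = 0.571) with groups that overlapped. With the mean of both probes the change was 0.34 (SE 0.11).
Each of the 8 pairs had an exact permutation p of 0.0286, the smallest possible, and an adjusted p of 0.0536 over the 15 pairs. With 8 pairs at the smallest p the adjusted value cannot be lower, so that it says nothing about which of them differ. Krt6a minus Krt75 changed by -0.40 (SE 0.21, exact permutation p = 0.143, adjusted p = 0.238), and the sizes of the 2 called members were not separated. The changes lay closest together for Krt6b and Krt16, with a difference of 0.03 (SE 0.05, exact permutation p = 0.629), and for Krt17 and Krt79, with 0.04 (SE 0.10, exact permutation p = 0.771). Differences of 0.12 to 0.19 remained between Krt6b or Krt16 on one side and Krt17 or Krt79 on the other, none of them with separate groups.

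**Figure D3:**
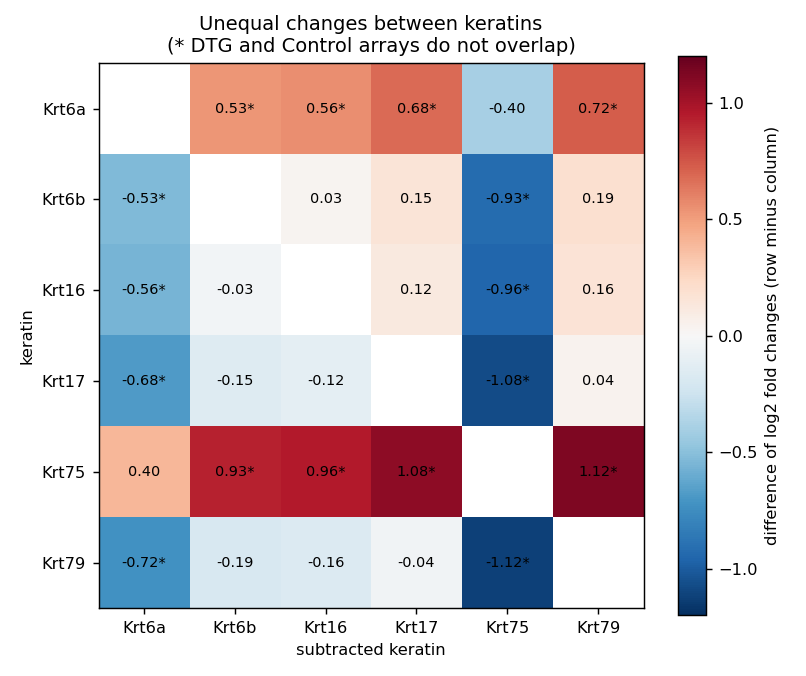
Each cell gives the log2 fold change of the keratin in the row minus that of the keratin in the column, from within-array differences of 4 DTG and 4 Control arrays, with a star where the groups do not overlap. The rows of Krt6a and Krt75 carry the stars, apart from the cell that sets them against each other, and the star of Krt6a against Krt6b holds for the Krt6b probe A_66_P101935 and not for A_51_P126275.

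The members also differed in how they spread within a group. Controls 1 and 3 stood above Controls 2 and 4 for Krt6a, both Krt6b probes, Krt16, Krt17 and Krt79, and not for Krt75. For the Krt6b probe A_66_P101935 this put Controls 1 and 3 at 0.31 and 0.26 above the Control mean and Controls 2 and 4 at -0.26 and -0.31. The SD of the log2 level was 0.05 in DTG skin and 0.33 in Control skin for that probe, and 0.26 in DTG skin and 0.09 in Control skin for Krt75. These SDs depended on the scaling. For Krt75 they were 0.25 and 0.10 with quantile normalisation, 0.23 and 0.23 with no scaling and 0.27 and 0.31 with spike-in scaling. For A_66_P101935 they were 0.06 and 0.18, 0.10 and 0.21, and 0.09 and 0.20 in the same order. On the 75th percentile scale every member probe in DTG skin, that of Krt75 included, lay above its group mean on DTG 1 and below it on DTG 3. With the array median, quantile normalisation and no scaling this failed for the Krt6b probe A_66_P101935 on DTG 1 and for Krt17 and Krt75 on DTG 3. With spike-in scaling the split of the Control arrays held only for the Krt6b probe A_51_P126275. With quantile normalisation and with no scaling it held for all of these but Krt79.
The same 2 Control arrays had lower 75th percentiles, at 11.69 and 11.76 in log2 signal against 12.05 and 11.88 for Controls 2 and 4. They also differed in the sex-linked transcript Xist, with log2 levels of -8.56 and -6.89, against 0.73 and 0.62 for Controls 2 and 4. In DTG skin Xist was low on DTG 2 alone, at -7.40, and the keratins of that array were the lowest of the group for Krt17, Krt75 and Krt79 and the highest for both Krt6b probes. The part of the scale or of the Xist class in the Control spread was not tested.

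**Figure D4:**
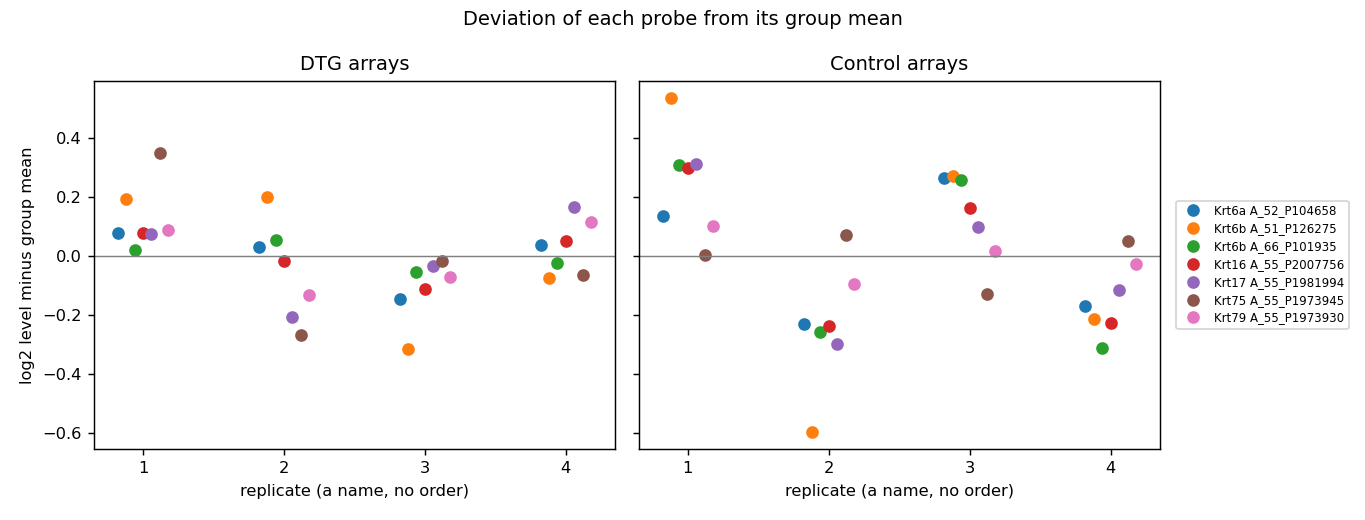
Deviation of each probe's log2 level from its group mean (vertical axis) on each array, DTG left and Control right, where replicate numbers are names without order. On Controls 1 and 3 the probes other than that of Krt75 lie above 0 and on Controls 2 and 4 below 0. Every probe, that of Krt75 included, lies above 0 on DTG 1 and below 0 on DTG 3, and the probes differ in sign on DTG 2 and DTG 4.

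Xist was high on 5 arrays, DTG 1, 3 and 4 and Controls 2 and 4, although all 8 were labelled male. With this class in the fit the log2 fold change was 0.59 for Krt6a (limma adjusted p = 0.0069) and 0.87 for Krt75 (adjusted p = 0.0022). Within the 5 arrays of high Xist it was 0.72 for Krt6a (limma adjusted p = 0.024) and 0.95 for Krt75 (adjusted p = 0.025). Within the 3 arrays of low Xist, which hold 1 DTG array, the differences were 0.36 for Krt6a and 0.72 for Krt75, given as values without a reading of the test.

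Over the 8 arrays the profiles of the members fell at different distances from each other, measured as the root mean square difference of log2 levels after centring each gene, and given as a description. Krt6b and Krt16 were closest at 0.067, then Krt16 and Krt17 at 0.115 and Krt17 and Krt79 at 0.119. Krt75 was 0.32 to 0.59 away from the other members, nearest to Krt6a. Among 16460 genes, the profiles most like Krt75 were Rgs2, a regulator of G protein signalling, at 0.110, and Tspan1, a tetraspanin, at 0.119. Those most like Krt6a were Akr1b8, an aldo-keto reductase, at 0.070, and Nup35, a nuclear pore component, at 0.071. Krt16 had Lce1i, a late cornified envelope gene, at 0.047 and Blmh, the bleomycin hydrolase that helps break down filaggrin, at 0.050. Krt6b was nearest to Csta2, a stefin gene, at 0.057 and Naa25, an acetyltransferase subunit, at 0.058. Krt17 was nearest to Zbtb7a, a zinc finger factor, at 0.069 and Wdr89 at 0.070, and Krt79 to Strbp at 0.033 and Ppp3ca, a calcineurin subunit, at 0.038.

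Of 43 keratins outside the 6 members, listed by the cells that make them, 40 were tested. Of these 2 rose, 11 fell and 27 did not pass, with a median log2 fold change of -0.26. The share called was 32.5%, beside 32.4% of all genes, of which 11.1% were higher and 21.3% lower. With spike-in scaling 3 of the 40 were higher and 2 lower.
By group, of 14 tested keratins of the epidermis and outer root sheath outside the members, 1 rose, 6 fell and 7 did not pass, with a median of -0.17. Those that fell included Krt78 at -1.55 (SE 0.20, limma adjusted p = 0.0012), Krt77 at -1.65 (SE 0.36, adjusted p = 0.010), Krt5, the type II keratin of basal cells, at -0.59 (SE 0.12, adjusted p = 0.0090) and Krt1, that of suprabasal cells, at -0.72 (SE 0.19, adjusted p = 0.022). All 4 were below 0 under each of the 5 scalings, and with spike-in scaling Krt5 and Krt1 no longer passed (limma adjusted p = 0.41 and 0.263), which left 2 genes of the group lower. With the slide column as a block 3 genes of the group were lower, and leaving out each array in turn left 3 to 6. The gene of this group that rose was Krt9, a keratin of palm and sole skin, at 0.85 (SE 0.25, limma adjusted p = 0.031), a call that was lost without DTG 1, DTG 3, Control 1, Control 2 or Control 4.
Of 5 simple epithelial keratins 1 fell and 4 did not pass, with a median of -0.18. It was Krt20, which in skin marks Merkel cells, at -1.06 (SE 0.30, limma adjusted p = 0.027). That call ended with spike-in scaling, at -0.64 (limma adjusted p = 0.068), and 0 genes of the group were lower without DTG 1, DTG 3 or DTG 4. Krt18 stood at 0.25 and Krt19 at -0.18 without passing the test, and Krt8 was not well above background on any DTG array.
The inner root sheath group abuts the companion layer. Of 9 such genes 1 rose, 1 fell and 7 did not pass, with a median of -0.23 that was -0.28 to 0.07 when each array was left out, above 0 only without Control 3. Tchh, the trichohyalin that binds keratin filaments in the inner sheath and medulla, rose by 1.30 (SE 0.17, limma adjusted p = 0.0012), and Krt72 changed by -0.48 (SE 0.15, adjusted p = 0.043). The call of Krt72 ended with quantile normalisation (limma adjusted p = 0.068), with no scaling (adjusted p = 0.171) and with spike-in scaling, at -0.05 (adjusted p = 0.886). No gene of this group was lower with the authors' value table, with outlier-flagged spots kept, or without DTG 1, DTG 2, DTG 3, Control 2 or Control 3. Krt28 at 0.20 and Krt74 at 0.18 did not pass. Of 13 tested hair shaft keratins 1 rose, 3 fell and 9 did not pass, with a median of -0.33. Some of those that did not pass were well above background on only 1 or 2 DTG arrays and were tested through the Control arrays alone. The gene at the median is 1 of these. Among the 6 that were well above background on all 8 arrays 1 rose and 3 fell, with a median of -0.35. Krt32 rose by 0.85 (SE 0.27, limma adjusted p = 0.044), while Krt84 changed by -0.87, Krt81 by -0.65 and Krt40 by -0.35. Leaving out each array in turn left 1 to 4 of these genes lower and 0 to 1 higher, with 0 higher unless the array left out was DTG 3 or Control 4, and the median ran over -0.47 to -0.15. The slide column as a block left 1 lower and 0 higher. With spike-in scaling 1 was higher and 0 lower, and Krt84 stood at -0.44 (limma adjusted p = 0.173), Krt81 at -0.22 (adjusted p = 0.529) and Krt40 at 0.07. Krt81 also lost its call with quantile normalisation (limma adjusted p = 0.061) and with no scaling (adjusted p = 0.058). The medians of these 4 groups were all above 0 with spike-in scaling, at 0.26 for the epidermal and outer sheath group, 0.24 for the simple epithelial, 0.20 for the inner root sheath and 0.10 for the hair shaft group. All 4 were below the median of all genes under that scaling, 0.28.

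**Figure D5:**
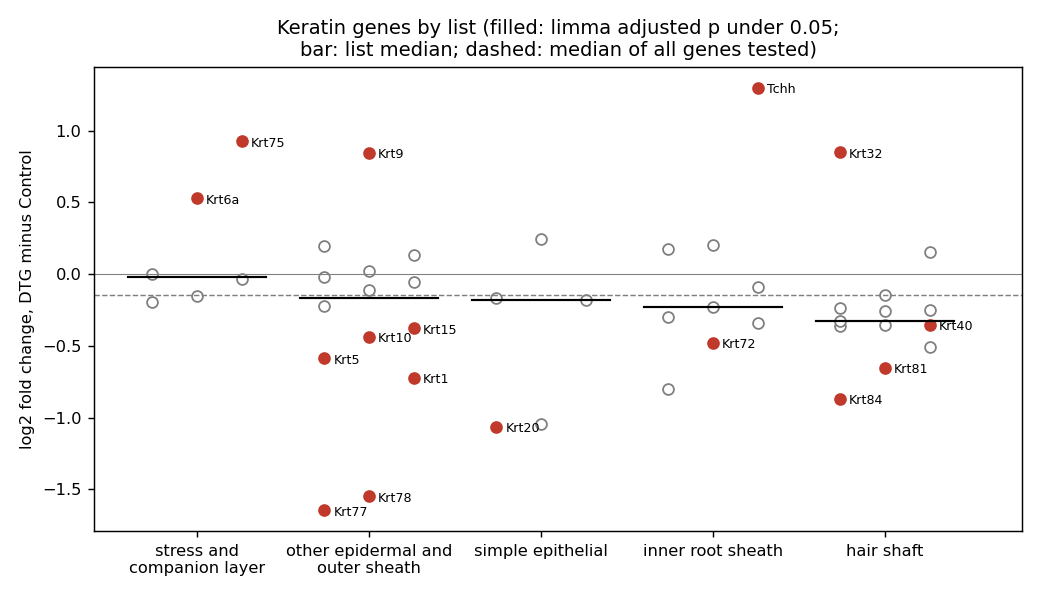
Log2 fold change (vertical axis, DTG minus Control) of each tested gene of the 6 members and of 4 groups of other keratins, filled where the limma adjusted p is under 0.05, with a bar at each list's median and a dashed line at the median of all genes. The members' median of -0.02 lies above the medians of -0.17 to -0.33 of the other groups on the 75th percentile scale. With spike-in scaling the medians of those 4 groups lie above 0 and below the median of all genes, 0.28. Some open hair shaft points, that at the list's median included, are of genes near background in DTG skin.

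The members lie among other keratin genes on chromosomes 15 and 11. On chromosome 15 the order in the annotation was Krt84, Krt82, Krt90, Krt75, Gm5414, Krt6b, Krt6a, Krt5, Krt71 and Krt72, so that the called members Krt75 and Krt6a flank Gm5414 and Krt6b, which did not pass the test. Gm5414 stood at -0.25 (SE 0.23, limma adjusted p = 0.418), and Krt5, directly next to Krt6a, was lower in DTG skin. Krt79 lies elsewhere on chromosome 15 between Krt4 and Krt78, and on chromosome 11 Krt16 and Krt17 lie side by side between Krt14 and Krt42. Krt42 stood at -0.03 (SE 0.11) and Krt14, the basal partner of Krt5, at -0.22 (SE 0.12), neither passing the test. Of 18 tested neighbours, 1 rose (Krt9), 5 fell (Krt78, Krt5, Krt77, Krt84 and Krt72) and 12 did not pass, with a median of -0.20, a share called near the 32.4% of all genes. With spike-in scaling 2 were higher and 2 lower, with a median of 0.22, beside 0.28 for all genes.

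Genes for signals and factors known to switch on stress keratins were read beside them. Of 25 such genes 12 rose, 2 were called lower and 11 did not pass, with a median of 0.26, against 11.1% of all genes that rose and 21.3% that fell. The list was chosen with earlier results of these data known, so its share of higher genes describes the list and is no test. Of 7 ligands of the EGF receptor, whose signal induces Krt6, Krt16 and Krt17 in keratinocytes, 6 rose. Tgfa rose by 2.19 (SE 0.23, limma adjusted p = 0.00047) and Hbegf by 1.61 (SE 0.15, adjusted p = 0.00028), and only Egf did not pass, at -0.10. Fosl1, an AP-1 subunit, rose by 2.41 (SE 0.31, limma adjusted p = 0.0011). The genes called lower were Il22, a cytokine that acts on keratinocytes, at -0.39 and at 0.03 with spike-in scaling, and Il17a, a cytokine that induces Krt17. Il17a was not well above background on any DTG array and has only a bound there, so no fold is given and its place in the count is no measured fall. The transcription factor genes Stat3 at 0.07 and Nfe2l2 at 0.23, and the receptor gene Egfr at 0.26, did not pass the test. These genes are set beside the 4 stress keratins only as values: Krt6a rose, and Krt6b, Krt16 and Krt17 did not pass.

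Of 11 tested genes for proteins that anchor or bind keratin filaments, 0 rose, 5 fell and 6 did not pass in the limma fit, with a median of -0.20, beside 11.1% of all genes higher and 21.3% lower. The plakins Evpl and Ppl, which link filaments to desmosomes and the cornified envelope, changed by -0.48 (SE 0.12, limma adjusted p = 0.017) and -0.42 (SE 0.13, adjusted p = 0.039), the desmosomal plakophilin Pkp2 by -0.42 and the linker plectin gene Plec by -0.33. With spike-in scaling 3 genes of the list were higher and 0 lower in the limma fit, with none of these 4 among them, while Ppl, Pkp2 and Plec had the opposite sign, at 0.01, 0.00 and 0.09. Sfn, which encodes the 14-3-3 protein that binds the Krt17 product, stood at 0.50 (SE 0.17, limma adjusted p = 0.053).

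Markers of skin cell types were read beside these results as log2 of their summed level, and their part in the values of the keratins was not tested. The brightest markers of basal epidermis (Krt14 and Krt5), dermal fibroblasts (Col3a1 and Col1a2) and skeletal muscle (Tnnt3 and Acta1) were well above background on 4 of 4 arrays of each group, as the whole skin label has it. Outer root sheath and bulge markers summed to 3.86 to 3.97 on DTG arrays and 4.22 to 4.42 on Control arrays over 3 genes, Krt15 being left out because 1 of its spots was an outlier. Of the list's 4 genes in the limma fit 3 were lower and 0 higher. Upper follicle markers, the compartment of Krt79, summed to 5.07 to 5.28 on DTG arrays and 4.95 to 5.18 on Control arrays, and of 4 genes 1 rose, Plet1 at 0.67 (SE 0.12, limma adjusted p = 0.0052). The other 3 did not pass, with Cst6, the brightest of the list, at -0.14, and the median of the list was -0.07. Basal epidermal markers, led by Krt14 and Krt5, summed to 5.8 to 6.0 on DTG arrays and 6.1 to 6.5 on Control arrays, with 3 of 5 lower and 0 higher. Spinous and granular markers summed to 6.12 to 6.35 on DTG arrays and 6.31 to 6.74 on Control arrays, with 1 of 5 higher and 2 lower.
Of 13 marker lists, 7 had summed levels that did not overlap between the groups, all 7 lower in DTG skin, beside 34.5% of single genes without overlap, 23.1% lower and 11.4% higher. This depended on the scaling. With spike-in scaling the sums of 0 lists were separate and lower in DTG skin and 2 were separate and higher, those of upper follicle and neutrophils. With quantile normalisation 5 were lower and 1 higher, that of upper follicle, with no scaling 5 were lower and with the array median 6. Besides the basal and outer root sheath lists these were those of sebaceous gland (1 of 6 higher, 2 lower), T cells (0 of 5 higher, 3 lower), adipocytes (0 of 5 higher, 4 lower), skeletal muscle (0 of 5 higher, 1 lower) and melanocytes (0 of 5 higher, 2 lower). The lists of fibroblasts (0 of 6 higher, 2 lower), neutrophils (1 of 8 higher, 1 lower), macrophages (1 of 4 higher, 0 lower) and endothelium (0 of 3 called) overlapped on the 75th percentile scale. The neutrophil marker called lower was well above background on only 2 of 4 DTG arrays and was tested through the Control arrays alone, so its fall is near the floor. The neutrophil sum rests mostly on its brightest genes, S100a9 and S100a8. Their mean log2 levels in DTG skin were 4.44 and 3.89 on that scale, and the list's other tested genes were at 1.26 or lower.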

How the data were processed

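The members and all lists were chosen with earlier results of these data known. Total RNA of 8 whole skin samples was read on single-colour Agilent arrays. The authors deposited scanner tables that hold spot intensity values, already background-corrected in the processed signal column, and flags. Per the file headers they come from Agilent Feature Extraction 11.5.1.1. The submitters' processing notes give 10.7. The deposited value table holds linear intensity values of 43861 probes. Its values matched the processed signal averaged per probe, to a relative difference of 0.001, in 99.6% of 350888 cases, so it is neither logged, centred nor scaled, with the direction of the scanner signal and column medians of 964 to 1140 for DTG and 851 to 1095 for Control.

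Control spots and outlier-flagged spots (0.55% of probe values) were left out, spots of a probe were averaged, and the 75th percentile of all non-control probes on an array was subtracted from its log2 values. Probes were kept when well above background on at least 3 of 4 arrays of a group, and the probe of highest mean signal stood for its gene. Accessions matched a RefSeq gene table (GRCm38.p6, names and gene order only) for 48.1% of probes. DTG and Control were compared with limma 3.58.1 in R 4.3.3 (lmFit, eBayes, two-sided, Benjamini-Hochberg) and by exact permutation over arrays. Tables were read with the R package data.table (version 1.17.8) and figures drawn with matplotlib 3.10.9. The fit was tested on simulated data of 17737 genes, with 100 genes changed at each of 2 sizes, far fewer than were called here. It called 12% of the log2 changes of 0.5 and 65% of those of 1, with 7 false calls. With so few changed genes the Benjamini-Hochberg cut is stricter than in the real fit, so these shares are not those of the real fit. A gene that did not pass may still differ. Precision is limited by the number of arrays. Alternatives covered the scaling, the background correction (normexp, offset 50, on the median signal in place of the planned mean signal), the value table, filters, probe choice (for the Krt6a and Krt6b pair also the other Krt6b probe, chosen after seeing the data), slide column, the class by Xist and Eif2s3y, and leaving out each array. Genes named in the text are the members, the up to 4 genes of smallest p in each list and among the neighbours, the 2 genes nearest to each member, and for cell types up to 2 markers of largest signal. Krt9, Krt72, Krt18, Krt19, Gm5414, Krt42, Egf, Il22, Stat3, Nfe2l2, Egfr, Sfn and Plet1 were named for comparison after their values were seen where that rule did not take them.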

Additional observations from a re-analysis of the deposited data

How the results depend on the processing

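Krt75 and Krt6a kept their direction under all 22 alternatives. Apart from the 3 arrays of low Xist, Krt75 kept its call under 21 and Krt6a under 20, the exception being the slide column as a block, where Krt6a stood at 0.53 (limma adjusted p = 0.0501) and 1 member was called. Low Xist, with 1 DTG array, gave 0.36 for Krt6a, 0.72 for Krt75 and 0 members called, which is no test of stability, and the 5 arrays of high Xist gave 2 members called. Krt6b turned to 0.42 with a call under spike-in scaling. The number of genes called was 5755, against 3832 with no scaling, 2603 within high Xist and 220 within low Xist, settings with fewer arrays chosen after seeing the data. Of the calls 34.4% were higher in DTG skin, 41.0% with quantile, 58.3% with no scaling and 90.8% with spike-in scaling. Leaving out each array in turn gave 4073 to 5172 genes called, 2 members called each time, and log2 fold changes of 0.45 to 0.62 for Krt6a (limma adjusted p 0.013 to 0.0425), 0.81 to 1.01 for Krt75, -0.11 to 0.10 for Krt6b, -0.11 to 0.07 for Krt16, -0.25 to -0.05 for Krt17 and -0.23 to -0.15 for Krt79. Of 25 upstream signals 12 rose, against 9 to 13 when each array was left out and 15 with spike-in scaling, and the binding proteins that fell numbered 5, against 1 to 4 when each array was left out and 1 with the slide column. The cause of these differences was not tested. The slide column sets 1 DTG array beside 1 Control array by position, which no label calls a pairing, and replicate numbers come from no label, so no fit used them. Negative control spots read 4.27 to 4.69 in log2 signal on DTG arrays and 2.40 to 3.29 on Control arrays, and normexp background correction gave 0.81 for Krt75. The part of the background in the values was not tested beyond that.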
